A study of Mus musculus with 2 samples.

Results

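The 9 genes described here encode chemokine receptors: Ccr1, Ccr2, Ccr6, Ccr7, Ccr9, Cxcr2, Cxcr4, Cxcr5 and Cx3cr1. They were taken by symbol from the table of counts per cluster, which holds 31053 genes, and all 9 were found there. The cells came from Apoe-/- mice, which lack apolipoprotein E and develop atherosclerosis, and every mouse ate a western diet for 4 weeks. One group received saline and the other received nt-LNA weekly at 30 mg/kg. Digests of the aortic arch and thoracic aorta were sorted for live CD45+/CD3- cells and sequenced by droplet-based 3' RNA sequencing, with 1 library per group. Sources used here give neither sex nor age of the mice nor how many were pooled per library. Although the sample titles speak of macrophages, the sort takes leukocytes of all kinds.

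Chemokine receptors are G protein-coupled receptors that let leukocytes migrate along gradients of secreted chemokines. In the atherosclerotic aorta, Ccr2 and Cx3cr1 are known for bringing in monocytes, and Cxcr2 for bringing in neutrophils. Ccr7, Cxcr5 and Ccr6 steer dendritic cells and B cells within lymphoid tissue, Ccr9 guides cells to the thymus and gut, and Cxcr4 holds many leukocytes in the bone marrow.

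There were 2742 saline cells and 4871 nt-LNA cells, and 2 barcodes occurred in both libraries. The counts are unique molecular identifiers (UMIs), 70206506 in all, added up by cluster over 20 clusters without regard to library. A level per library or for a single cell therefore cannot be read from them. Levels are given as CPM, the counts scaled to a cluster total of 1000000, and as UMIs per 100 cells. Mean UMIs per cell ran from 1278 in cluster 5 to 24869 in cluster 19, and 5 clusters (2, 5, 9, 14 and 16) lay under 4000. Ptprc, which encodes CD45, was detected in all 20 clusters, at 295 to 2080 CPM. Cd3e, a CD3 gene, was also detected in all 20, from 10.7 CPM in cluster 4 to 1331 CPM in cluster 5, although the sort was for cells without CD3. The 8 genes of a T cell marker list were all detected in every cluster, with a summed level from 174 CPM in cluster 4 to 11624 CPM in cluster 9. RNA of a lineage was thus found in clusters led by genes of another lineage, and receptor levels are set beside such markers where both moved together.

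The authors' deposited annotation names clusters 0, 6, 7, 8, 10, 15, 17, 18 and 19 Macrophages, 1, 2, 4 and 12 B cells, 3 NK cells, and 5, 9, 11, 13, 14 and 16 T cells. Several clusters under these names were led by other cells' markers, so clusters are called by number here, with a further name only where markers other than Ccr2, Ccr7 and Ccr9 gave one. By that rule clusters 1 and 12 were B cell-like, 3 NK cell-like, 6 proliferating-like, 7 neutrophil-like, 8 mature dendritic cell-like, 15 nonclassical monocyte-like, 16 ILC2-like (group 2 innate lymphoid cells), 17 type 1 dendritic cell-like, 18 plasmacytoid dendritic cell-like and 19 serous cavity macrophage-like. Cluster 2 carried B cell genes, cluster 4 antibody genes and clusters 5, 9 and 14 T lineage genes. In cluster 14 the T cell list summed to 11144 CPM and the proliferating list to 4711 CPM. Its only listed marker among the 50 leading genes was the proliferation gene Mki67. Cluster 10 had 3 markers each of classical monocytes and foamy macrophages, and cluster 11 was led by Il5 and Il17a. Clusters 0 and 13 are unnamed, although the T cell list summed to 7142 CPM in cluster 13. Cluster 0, the largest, had all 4 smooth muscle markers among its 50 leading genes, but these summed to 430 CPM there and 6 macrophage markers to 6059 CPM, so it was left without that name as an exception to the rule. Sums were not used to withhold any other name. In cluster 8 type 2 dendritic cell markers summed to 1182 CPM and mature ones to 741 CPM. In cluster 6 the T cell list summed to 5066 CPM and the proliferating list to 3177 CPM. In cluster 15 the classical monocyte list summed to 2628 CPM and the nonclassical one to 2561 CPM. Clusters were drawn from the cells' own transcripts, so the receptor levels describe the clusters and no test was made. The intervals are 95% intervals and cover counting error only.

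The receptors differed in how far they were concentrated in a single cluster. A receptor was counted as concentrated when its highest cluster had at least 10 times the mean CPM of the other 19. Of all 12780 genes with at least 50 counts, 10.5% passed this, and 3 of the 9 receptors did: Cxcr2 at 47.3-fold, Ccr1 at 10.8-fold and Cxcr5 at 10.8-fold. At 5-fold, which 26.1% of genes passed, 8 of 9 did, and at 10-fold on UMIs per 100 cells, which 12.2% passed, Cxcr2 alone did. Against the median of the other clusters, 7 of 9 receptors and 20.3% of all genes passed 10-fold. Ccr2 lay just under the threshold at 9.41-fold. The others were Cx3cr1 at 8.62-fold, Ccr9 at 7.58-fold, Ccr6 at 6.73-fold, Ccr7 at 5.19-fold and Cxcr4 at 2.89-fold. The median of the 9 was 8.62-fold, against 2.999-fold over all genes tested. The highest cluster lay above the next one beyond counting error for 9 of 9 receptors, against 30.7% of genes with at least 50 counts. This resolution depends on the number of counts, and the receptors had 1088 (Ccr6) to 16296 (Cxcr4) UMIs each. The 2 shares are therefore not on equal terms.

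**Figure D1:**
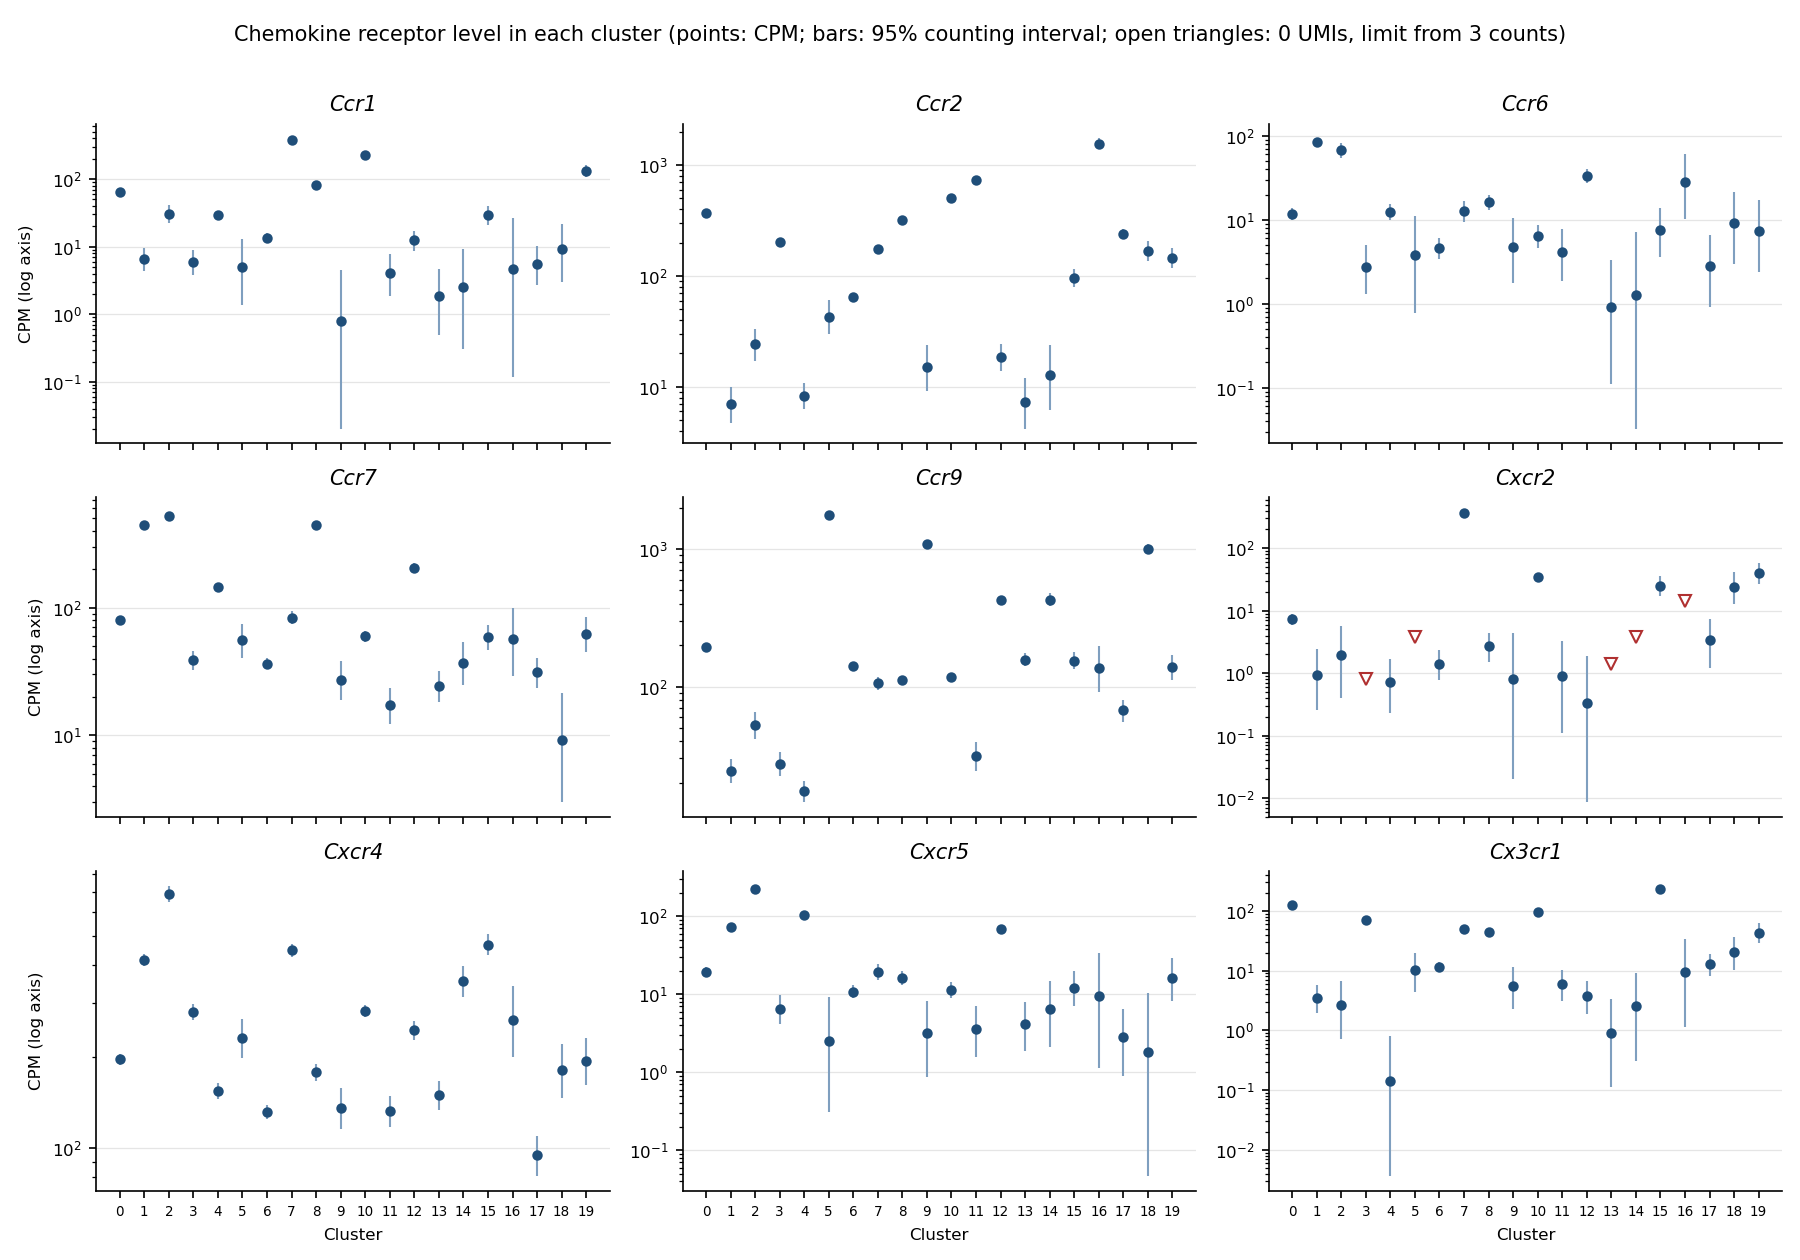
CPM of each receptor (log axis, a separate range in each panel) in the 20 clusters, with bars for the 95% counting interval and open triangles at the level of 3 counts where no UMI was found. Cxcr2 stands at 360 CPM in cluster 7 and at most 40.2 CPM elsewhere, while Cxcr4 stays between 94.5 and 690 CPM.

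The receptors of neutrophils and inflammatory monocytes come first, and 4 promoters are shown because Ccr1 and Cxcr2 share their highest cluster and Ccr2 and Cx3cr1 are the receptors used to tell monocyte subsets apart. Each is the stretch of 250 bases before the gene's start in RefSeq, build GRCm38.p6. Capitals mark matches on either strand to AGGAAG (a PU.1 motif), TTNNGNAA (C/EBP) and TGTGGT (RUNX), which do not overlap here. Ccr1 lies at chr9:123968693-123968942 on the minus strand, Cxcr2 at chr1:74153744-74153993 on the plus strand, Ccr2 at chr9:124101933-124102182 on the plus strand and Cx3cr1 at chr9:120068297-120068546 on the minus strand.
Ccr1: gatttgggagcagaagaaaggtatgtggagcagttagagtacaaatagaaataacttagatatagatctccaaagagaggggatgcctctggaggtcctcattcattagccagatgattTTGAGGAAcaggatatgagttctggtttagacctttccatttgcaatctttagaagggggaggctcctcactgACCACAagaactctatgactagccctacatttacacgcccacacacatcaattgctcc
Cxcr2: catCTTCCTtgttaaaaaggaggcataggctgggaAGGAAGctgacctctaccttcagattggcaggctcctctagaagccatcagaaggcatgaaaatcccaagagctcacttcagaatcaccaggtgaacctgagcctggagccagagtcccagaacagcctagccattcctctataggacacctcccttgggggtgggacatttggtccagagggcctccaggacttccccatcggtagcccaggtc
Ccr2: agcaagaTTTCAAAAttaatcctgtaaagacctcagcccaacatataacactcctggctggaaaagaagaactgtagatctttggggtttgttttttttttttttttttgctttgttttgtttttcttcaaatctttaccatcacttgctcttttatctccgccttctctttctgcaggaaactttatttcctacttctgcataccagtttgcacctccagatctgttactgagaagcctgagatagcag
Cx3cr1: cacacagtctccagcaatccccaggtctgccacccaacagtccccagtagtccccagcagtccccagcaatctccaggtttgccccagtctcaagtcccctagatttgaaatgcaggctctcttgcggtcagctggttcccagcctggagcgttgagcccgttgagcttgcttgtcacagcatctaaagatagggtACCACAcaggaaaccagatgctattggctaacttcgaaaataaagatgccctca
The Ccr1 window holds a C/EBP and a RUNX match, Cxcr2 a pair of PU.1 matches, Ccr2 a C/EBP match and Cx3cr1 a RUNX match. Such matches are common: of 32851 mouse promoters of this length, 9686 (29.5%) hold the PU.1 letters, 12104 (36.8%) the C/EBP letters and 4614 the RUNX letters. Of the 8 promoters found for 7 of the 9 receptors, 3, 5 and 2 did. These letters alone say nothing about binding of a factor.

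Cxcr2, the receptor for the neutrophil attractants Cxcl1 and Cxcl2, was the most concentrated of the 9. It reached 360 CPM (341 to 380) in the neutrophil-like cluster 7, which held 74.8% of its 1742 UMIs. Next came cluster 19 at 40.2 CPM (27 UMIs), cluster 10 at 35.2 CPM, cluster 15 at 25.1 CPM and cluster 18 at 23.9 CPM (13 UMIs), of which no neighbours differed beyond counting error. No Cxcr2 UMI was found in clusters 3, 5, 13, 14 and 16, where a count of 0 allows up to 0.817, 3.80, 1.38, 3.85 and 14.1 CPM. The median cluster had 1.17 CPM. Neutrophil markers, 8 genes headed by S100a8 and S100a9, were also present outside cluster 7: they summed to 104257 CPM there, 3994 CPM in cluster 19 and 2655 CPM in cluster 10, but to 432 CPM in cluster 15 and 300 CPM in cluster 18. Their part in the Cxcr2 counts of those clusters was not tested.

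Ccr1, a receptor for Ccl3 and Ccl5 on neutrophils and monocytes, was highest in the same cluster but spread further. It stood at 380 CPM (360 to 401) in cluster 7, 227 CPM in cluster 10, 133 CPM in cluster 19, 81.8 CPM in cluster 8 and 64.7 CPM in cluster 0, each above the next beyond counting error. The nonclassical monocyte-like cluster 15 had 29.7 CPM, from 39 UMIs. The lowest level was 0.801 CPM in cluster 9, from 1 UMI. Per cell the order turned, with 395 UMIs per 100 cells in cluster 10, 356 in cluster 7 and 330 in cluster 19. Cluster 4, the antibody-rich cluster, held 202 Ccr1 UMIs at 28.9 CPM, against 6.57 CPM in the B cell-like cluster 1. In cluster 4 the neutrophil markers summed to 62.9 CPM, macrophage markers to 30.7 CPM and a classical monocyte list to 1812 CPM. That list summed to 1520 CPM in cluster 13 and 4151 CPM in cluster 18, where Ccr1 was at 1.84 and 9.21 CPM. For each 100 UMIs of the neutrophil markers cluster 4 had 46.0 Ccr1 UMIs (38.8 to 54.5), close to the 52.4 of cluster 8. The part of other cells' RNA in the Ccr1 counts of cluster 4 was not tested.

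Ccr2, the receptor for Ccl2 that marks classical monocytes, was widespread, and where it was highest depended on the scale. On CPM it led in the ILC2-like cluster 16 with 1562 CPM (1399 to 1740). That value rests on 332 UMIs from 112 cells, 2.25% of the 14736 Ccr2 UMIs. Cluster 11 followed at 735 CPM, then cluster 10 at 501 CPM, cluster 0 at 371 CPM, cluster 8 at 319 CPM and cluster 17 at 241 CPM. All of these differed from their neighbours beyond counting error. The nonclassical monocyte-like cluster 15 had 96.0 CPM. The B cell-like cluster 1 was lowest at 7.04 CPM. Per 100 cells, cluster 10 led with 872 UMIs, followed by cluster 0 with 512, cluster 11 with 487 and cluster 8 with 475, while cluster 16 had 296. The cells of cluster 16 had a mean of 1897 UMIs and those of cluster 10 a mean of 17396. In cluster 16 the ILC2 markers, 6 of 6 detected, summed to 5487 CPM. The classical monocyte list without Ccr2 summed to 198 CPM there, with Vcan at 0.

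Cx3cr1, the receptor for fractalkine (Cx3cl1) on patrolling monocytes, resident macrophages and some NK cells, was highest in cluster 15. It reached 237 CPM (211 to 265) there, 128 CPM in cluster 0, 95.4 CPM in cluster 10 and 71.1 CPM in the NK cell-like cluster 3, each above the next beyond counting error. Clusters 7, 8 and 19 lay at 43.2 to 50.1 CPM. Cluster 4 had 1 UMI, or 0.143 CPM. Per 100 cells the 3 leading clusters were the same, with 236 UMIs in cluster 15, 177 in cluster 0 and 166 in cluster 10, the last pair not resolved. Cluster 3 came behind clusters 19, 8 and 7 on that scale, with 41.6 UMIs. Cluster 0, with 941 cells, supplied 47.3% of all Cx3cr1 UMIs. Ccr2 and Cx3cr1 thus had opposite orders in clusters 10 and 15: 501 and 95.4 CPM in cluster 10, and 96.0 and 237 CPM in cluster 15, where only the order of clusters within each gene is compared.

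Ccr7, which draws dendritic cells and lymphocytes to lymph nodes, was high in clusters with B cell genes and in cluster 8, the mature dendritic cell-like one. Its level was 524 CPM (488 to 562) in cluster 2, 447 CPM in cluster 1 and 442 CPM in cluster 8. Clusters 1 and 8 did not differ beyond counting error, with a ratio of 1.01 (0.952 to 1.07). Cluster 12 had 206 CPM and cluster 4 had 144 CPM, all other clusters were at or below 83.8 CPM, and cluster 18 was lowest at 9.21 CPM from 5 UMIs. Per 100 cells, cluster 8 had 658 Ccr7 UMIs, 2.48 times (2.34 to 2.64) the 265 of cluster 1, and cluster 2 had 120. With TMM or DESeq2 factors, or without mitochondrial and ribosomal protein genes in the totals, cluster 1 stood above cluster 2 by 1.03 to 1.08 times, which was not resolved in any of these 3 settings.

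Outside cluster 8, Ccr7 and B cell markers stood in a similar proportion in several clusters of the Macrophages annotation. For each 100 UMIs of 8 B cell markers, the clusters with B cell or antibody genes (1, 2, 4 and 12) had 2.78 to 5.49 Ccr7 UMIs. Clusters 0, 7, 10, 15 and 19 had 4.62 to 6.47, with B cell markers at 967 to 1630 CPM. Cluster 8 had 45.2 (43.1 to 47.4), although its B cell markers summed to 979 CPM, within the same range. Clusters 6, 17 and 18 of that annotation had 5.07, 7.11 and 1.52. The proportion was higher in clusters 3, 5, 9, 14 and 16, at 8.89, 14.9, 10.8, 8.87 and 13.3. Clusters 11 and 13 had 6.57 and 5.67. The part of B cell RNA in the values below that of cluster 8 was not tested.

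Cxcr5, the receptor for Cxcl13 that places B cells in follicles, was highest in the same 4 clusters that carried B cell or antibody genes. Cluster 2 had 221 CPM (198 to 246), cluster 4 had 102 CPM, cluster 1 had 72.5 CPM and cluster 12 had 68.0 CPM, the last pair not resolved. Every other cluster lay at or below 19.5 CPM. Per 100 cells, cluster 4 led with 115 UMIs, followed by cluster 12 with 80.8 and cluster 2 with 50.8. For each 100 B cell marker UMIs the 4 clusters had 0.891 to 1.97 Cxcr5 UMIs and clusters 0, 7, 10, 15 and 19 had 0.960 to 1.69. Cluster 8 had 1.67, inside that range, where its Ccr7 value was not.

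Ccr6, the Ccl20 receptor of naive and memory B cells and of Il17a-producing lymphocytes, had 1088 UMIs in all. It reached 84.3 CPM (75.8 to 93.5) in cluster 1, 67.5 CPM in cluster 2 and 33.3 CPM in cluster 12. Cluster 1 exceeded cluster 2 by 1.25 times, with an interval from 1.001 to 1.57, and this difference was not resolved when immunoglobulin genes were left out of the totals. The antibody-rich cluster 4 had 12.3 CPM, close to the 12.7 CPM of cluster 7. Ccr6 and Cxcr5 therefore ranked cluster 4 differently: it was the second for Cxcr5 and the seventh for Ccr6. Cluster 11, led by Il5 and Il17a, had 4.08 CPM from 9 UMIs. For each 100 B cell marker UMIs, cluster 8 had 1.65 Ccr6 UMIs (1.32 to 2.03), so Ccr6 also stood high there. Clusters 1, 2, 4 and 12 had 0.237 to 1.03 and clusters 0, 7, 10, 15 and 19 had 0.549 to 0.825. Clusters 9 and 16 had 1.90 and 6.67, from 6 Ccr6 UMIs each. The part of B cell RNA in these values was not tested.

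Ccr9, the Ccl25 receptor of thymocytes and plasmacytoid dendritic cells, was highest on CPM in clusters 5 and 9, which carried T lineage genes, and in cluster 18. It reached 1764 CPM (1672 to 1859) in cluster 5, 1092 CPM in cluster 9 and 1004 CPM in the plasmacytoid dendritic cell-like cluster 18, of which the last pair was not resolved. Clusters 14 and 12 followed at 429 and 423 CPM, and cluster 4 was lowest at 17.3 CPM. The B cell-like cluster 12 also carried the T cell list at 4103 CPM and an immature T lineage list at 2118 CPM, with 19.96 Ccr9 UMIs for each 100 UMIs of the latter. Per 100 cells, cluster 18 led with 924 UMIs from 59 cells, ahead of cluster 12 with 502, cluster 9 with 379 and cluster 5 with 225. Clusters 5 and 9 carried the immature T lineage list (Rag1, Rag2, Dntt, Ptcra, Cd8b1 and Arpp21) at 5767 and 6137 CPM.

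The same list was detected in clusters of the Macrophages annotation, and Ccr9 stood in a nearly fixed proportion to it in 7 of the 9. In clusters 0, 7, 8, 10, 15, 17 and 19 the list summed to 304 to 974 CPM, Ccr9 ran from 67.1 to 194 CPM, and there were 19.8 to 23.7 Ccr9 UMIs for each 100 list UMIs. Set against Rag1 alone, these 7 clusters had 0.940 to 1.05 Ccr9 UMIs per Rag1 UMI. The proliferating-like cluster 6, of the same annotation, lay apart with the list at 2053 CPM. It had 6.82 Ccr9 UMIs for each 100 list UMIs and 0.687 per Rag1 UMI. Cluster 13, annotated as T cells, was close to cluster 6, with the list at 2295 CPM and proportions of 6.84 and 0.673. For each 100 list UMIs, clusters 5, 9 and 14 had 30.6, 17.8 and 10.2 Ccr9 UMIs. Clusters 1, 2, 3 and 4, outside the Macrophages annotation, had 27.0, 23.3, 17.7 and 29.2. Clusters 11 and 16 had more, at 41.8 (31.1 to 55.7) and 59.2 (36.1 to 95.6), from 69 and 29 Ccr9 UMIs. Per Rag1 UMI these 2 clusters had 2.09 and 1.93. Per Rag1 UMI, cluster 5 had 1.57 (1.44 to 1.71), cluster 9 had 0.659 (0.615 to 0.706) and cluster 14 had 1.27 (1.07 to 1.49). Cluster 18 had 545 Ccr9 UMIs and 9 Rag1 UMIs, a ratio of 60.6 (31.7 to 133), with Rag2 at 0. The whole list summed to 473 CPM in cluster 18, from 5 of its 6 genes, close to the 472 CPM of cluster 7 and the 467 CPM of cluster 8, and there were 212 Ccr9 UMIs for each 100 of it. The part of T lineage RNA in these Ccr9 levels was not tested.

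**Figure D2:**
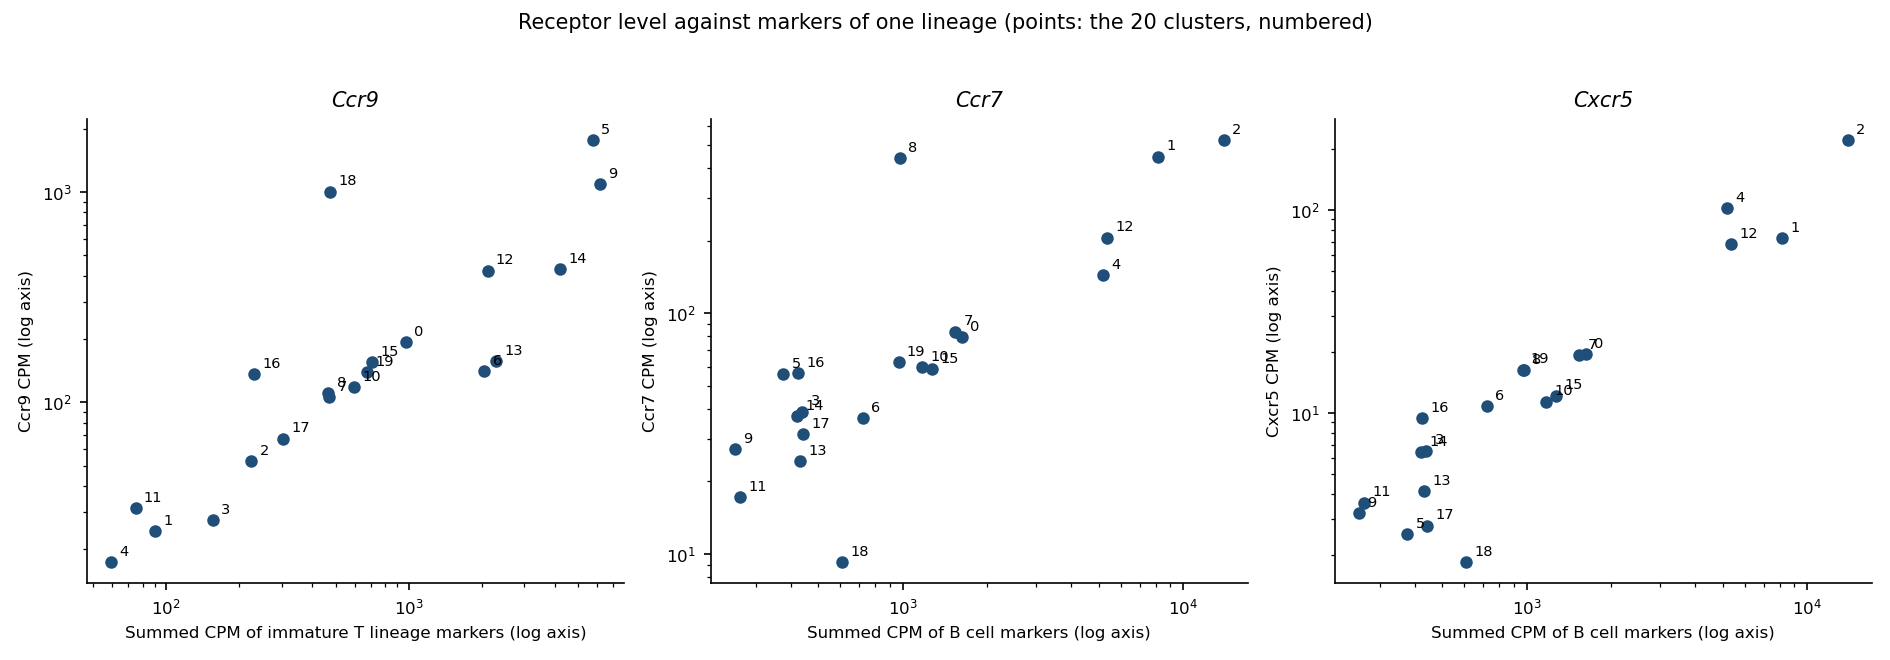
CPM of Ccr9, Ccr7 and Cxcr5 against the summed CPM of the immature T lineage or B cell markers in the 20 numbered clusters (both axes log). Cluster 18 lies above the other clusters of similar marker level for Ccr9 (1004 CPM) and cluster 8 for Ccr7 (442 CPM), and no cluster lies apart in that way for Cxcr5.

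Cxcr4, the receptor for Cxcl12, differed least between clusters. All 20 clusters had at least 10% of its highest level, and 5 had at least 50% of it. It stood at 690 CPM (649 to 733) in cluster 2, 469 CPM in cluster 15, 448 CPM in cluster 7, 418 CPM in cluster 1 and 354 CPM in cluster 14, with a median of 213 CPM and a lowest value of 94.5 CPM in the type 1 dendritic cell-like cluster 17. Per 100 cells, cluster 10 had 491 UMIs, cluster 19 had 481 and cluster 15 had 466, and these neighbours were not resolved. Cluster 2, highest on CPM, fell to 158 UMIs per 100 cells, below the median of 171.

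The choice of scale moved most of the receptors, as it did most genes. On UMIs per 100 cells, 6 of the 9 had another highest cluster than on CPM, against 72.9% of all genes. Ccr6, Cxcr2 and Cx3cr1 kept theirs. The 6 that moved went from cluster 7 to 10 (Ccr1), 16 to 10 (Ccr2), 2 to 8 (Ccr7), 5 to 18 (Ccr9), 2 to 10 (Cxcr4) and 2 to 4 (Cxcr5). In 5 of these cases the cluster left had under 4000 UMIs per cell, the exception being Ccr1. In summed counts, fewer cells with a receptor and less of its RNA per cell cannot be told apart.

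**Figure D3:**
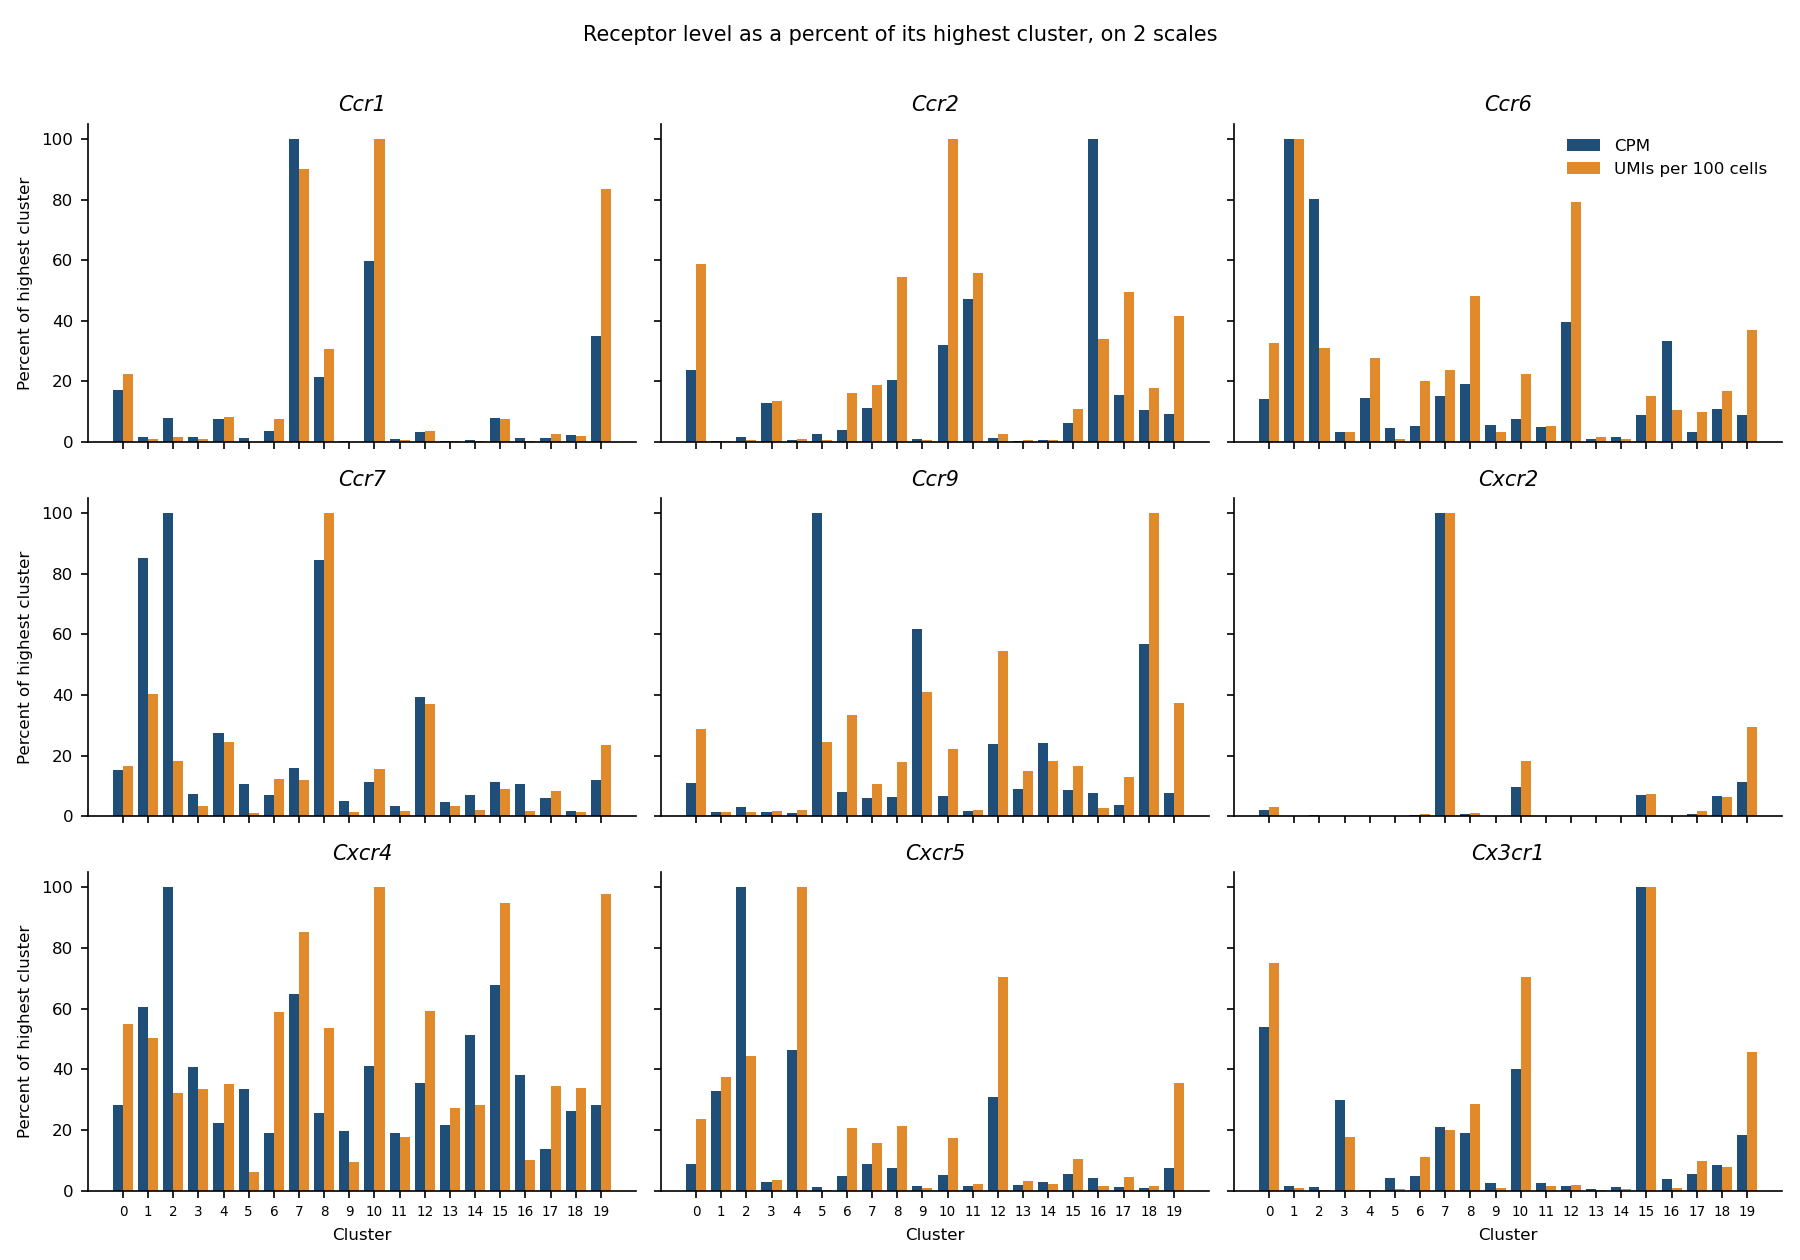
Level of each receptor as a percent of its highest cluster, on CPM (blue) and on UMIs per 100 cells (orange), for the 20 clusters. Ccr9 in cluster 18 and Ccr7 in cluster 8 reach 100 on the per-cell scale, whereas clusters 5 and 2 do so on CPM.

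Pairs of receptors with similar profiles were described by the correlation of log2(CPM + 1) over the 20 clusters, which share libraries and are given with no test. Ccr7 and Cxcr5 had r = 0.86, Ccr1 and Cxcr2 r = 0.79, Ccr6 and Cxcr5 r = 0.77, Ccr6 and Ccr7 r = 0.77, and Ccr2 and Cx3cr1 r = 0.65. By the same measure over the 12780 genes, Lilra6 (r = 0.89) and Gm15448 (r = 0.87) were among the 3 most alike to Ccr1, and the 3 most alike were Pi16, Amer2 and A530064D06Rik for Cxcr2 (0.93 to 0.94). They were Fam129a, Tnfrsf11a and Cd200r1 for Ccr2 (0.90 to 0.94) and Fcer1g, Myo1f and Dse for Cx3cr1 (0.92 to 0.95). For Ccr6 they were Pax5, Gm8369 and Prkce (0.87 to 0.88), for Ccr7 Cr2, Fcer2a and Scd1 (0.87 to 0.88) and for Cxcr5 Ms4a1, 2010007H06Rik and Cd55 (0.95). Plxdc1, Gpr162 and Zdhhc14 were nearest to Ccr9 (0.89 to 0.93) and Ptbp3, Ssh2 and Sipa1l2 to Cxcr4 (0.82 to 0.88).

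Of 20 ligands of these receptors, 14 had at least 50 counts and 8 of these passed the 10-fold rule, against 10.5% of all genes. The Ccr2 ligands Ccl2 (1294 CPM) and Ccl7 (382 CPM) were highest in cluster 10, where Ccr2 was at 501 CPM, and Ccl12 (135 CPM) and Ccl8 (49.6 CPM) in cluster 0, where Ccr2 was at 371 CPM. The Ccr1 ligands Ccl5 (18131 CPM) and Ccl3 (1308 CPM) were highest in the NK cell-like cluster 3, where Ccr1 was at 5.99 CPM, and Ccl6 (1121 CPM) and Ccl9 (610 CPM) in cluster 10, where Ccr1 was at 227 CPM. The Cxcr2 ligands Cxcl2 (4967 CPM) and Cxcl3 (233 CPM) were highest on CPM in cluster 7, as was their receptor, but per cell in clusters 19 and 10, and Cxcl1 (171 CPM) in cluster 19. Cxcl13, the Cxcr5 ligand, was at 743 CPM in cluster 19, where Cxcr5 was at 16.4 CPM, and the mean of the other clusters was 0.635 CPM. Ccl25 was highest on CPM in cluster 5 (60.8 CPM, 44.8 to 80.6), as was Ccr9, at 3.31 times the mean of the other clusters. Per 100 cells Ccl25 was highest in cluster 6, at 34.5 UMIs. Cxcl12 had 76 UMIs in all, with its highest level, 4.47 CPM, in cluster 19, where the counting interval was wide (0.921 to 13.1 CPM). No UMI of the Ccr6 ligand Ccl20 was found in any cluster, where 3 counts would be 0.0427 CPM over all cells. The stromal and endothelial ligands Ccl19, Ccl21a and Cx3cl1 had 33, 2 and 37 UMIs.

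Among 15 other chemokine receptors, 10 had at least 50 counts and 7 of these passed the 10-fold rule, against 10.5% of all genes. Ccr4, Ccr8 and Cxcr6 were highest in the ILC2-like cluster 16, as was Ccr2, at 18.8, 132 and 828 CPM, from 4, 28 and 176 UMIs. Per cell all 3 were highest in cluster 11. Cxcr1 (13.6 CPM) and Ccrl2 (583 CPM) were highest on CPM in cluster 7 with Cxcr2 and Ccr1. Ccrl2 was not resolved there from its 558 CPM in cluster 15, with a ratio of 1.04 (0.960 to 1.14), and per 100 cells it was highest in cluster 19, at 1096 UMIs against 546 in cluster 7. Xcr1, a marker used to name cluster 17, reached 224 CPM there, and Ackr3 was highest in cluster 19 (26.8 CPM, from 18 UMIs in 27 cells). Ccr10 was highest on CPM in cluster 4 (6.02 CPM, 42 UMIs). Per 100 cells it was highest in cluster 6, at 7.02 UMIs against 6.74 in cluster 4.

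Because the counts pool both libraries, the treatments could be compared only through how their cells fall into clusters. For each receptor the pooled UMIs per 100 cells of the clusters were weighted by each library's share of cells. This is a level implied by composition, not a level measured in either library, and with 1 library per group it has no replicate check. For Cxcr2 the implied level was 35.5 UMIs per 100 cells for saline and 15.8 for nt-LNA, a ratio of 0.443. For Ccr1 it was 86.4 and 48.4, a ratio of 0.559. Cluster 7, with 74.8% of the Cxcr2 UMIs and 29.1% of the Ccr1 UMIs, held 8.28% (7.27 to 9.37) of saline cells and 3.26% (2.78 to 3.80) of nt-LNA cells. Cluster 10, with 29.9% of the Ccr1 UMIs and the highest Ccr1 level per cell, held 7.62% (6.66 to 8.68) and 3.06% (2.59 to 3.58). The ratio was 0.718 for Cx3cr1, 0.740 for Ccr2, 0.811 for Ccr7, 0.815 for Cxcr4 and 0.838 for Ccr6. It was 1.06 for Ccr9 and 1.09 for Cxcr5. UMIs of all genes weighted in this way gave 0.889.

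With cluster CPM as the weight, Ccr9 had a ratio of 1.48 and Cxcr5 one of 1.24, while Ccr7 at 0.959 and Cxcr4 at 0.982 came close to 1. Without the 5 clusters under 4000 UMIs per cell, the ratio for all genes was 1.02, that for Cxcr2 0.526 and that for Ccr1 0.658.

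**Figure D4:**
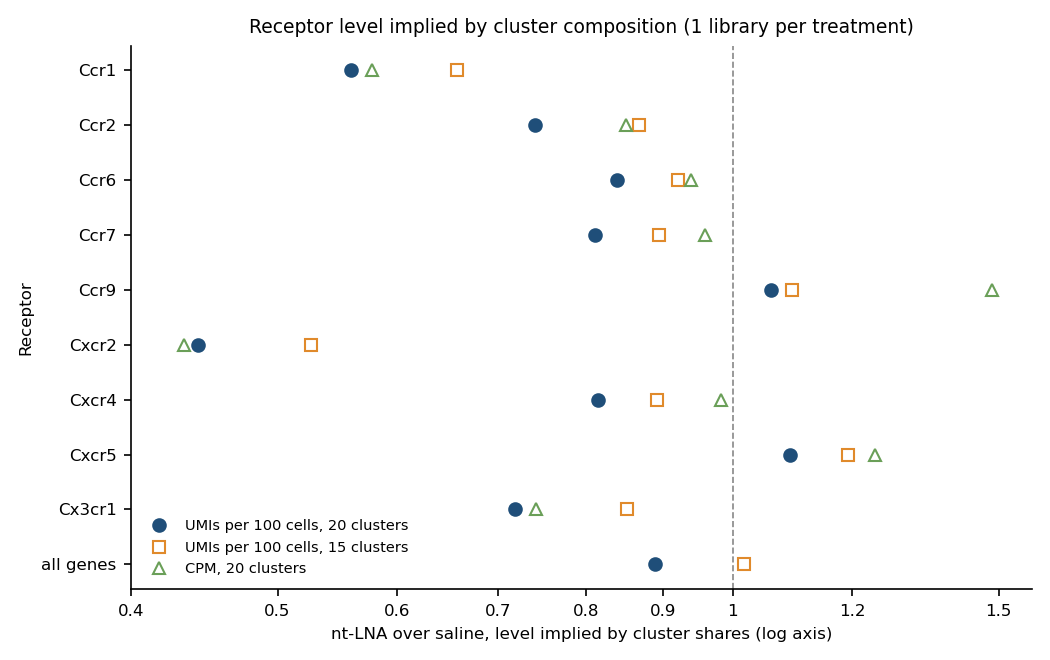
Ratio of nt-LNA to saline (log axis) of the level that cluster shares imply, by 3 weightings for each receptor and 2 for all genes. Cxcr2 and Ccr1 lie lowest at 0.443 and 0.559 on UMIs per 100 cells, and Ccr9 and Cxcr5 lie above 1 in every weighting.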

How the data were processed

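Levels of 9 chemokine receptor genes were read from aortic leukocytes of saline- and nt-LNA-treated Apoe-/- mice. The deposited values are whole-number UMI counts per gene, summed by the authors over each of 20 clusters with both libraries pooled. The submitters' processing notes name Cell Ranger 2.1.1, Seurat and the build mm9. How cells were filtered and clustered, and whether doublets were removed, is not given in the sources used, and no doublet caller was run because it needs counts per cell. A deposited table of cells gave each cell's library and cluster. A deposited table of scaled values and a deposited summary were not used.

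CPM was computed by dividing by the cluster's total. CPM carries exact Poisson, ratios of counts exact conditional and shares exact Clopper-Pearson 95% intervals, all covering counting error only. A count of 0 was set to 3 counts for its upper limit. The ratio of a gene is its highest cluster over the mean of the others, over genes with at least 50 counts, with 10-fold as the rule. Profiles were compared on log2(CPM + 1). Alternatives were UMIs per 100 cells, edgeR 4.0.16 TMM and DESeq2 1.42.0 size factors (R 4.3.3), totals without mitochondrial and ribosomal protein or immunoglobulin genes, the median of the other clusters, 5-fold, no count minimum, and leaving out the 5 clusters under 4000 UMIs per cell. Calculations used scipy 1.17.1, pandas 2.3.3 and numpy 2.4.6 under Python 3.11.15, with plots from matplotlib 3.10.9, and were tested on simulated counts with known folds. With 1 library per treatment no p-value was computed.

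The members, gene lists and alternatives were chosen with earlier results of these data known. A cluster was named when at least 3 markers of a type other than Ccr2, Ccr7 and Ccr9 were among its 50 leading genes with no tie, and clusters under 4000 UMIs per cell also needed 1 among the leading 10. Cluster 0, which had 4 smooth muscle markers, was left unnamed as an exception, because its macrophage markers were higher in sum. This comparison of sums was not applied to the other clusters. This scoring, and the marker lists set beside each receptor, were chosen after values were seen. Named genes are the 9 receptors, the 3 genes most alike to each, ligands with at least 50 counts, other receptors past 10-fold or sharing a member's highest cluster, the 3 signalling genes with the largest ratio, and listed markers. A few genes that this rule takes are not reported here. Ccl20, Ccl19, Ccl21a and Cx3cl1 and the genes used to check the sort were named after their values were seen. Promoter sequences and gene order are from RefSeq for GRCm38.p6, another build than mm9, and were joined by symbol only.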

Additional observations from a re-analysis of the deposited data

How the results depend on the processing

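No paired analysis was possible because each treatment has 1 library and the counts pool both. For the same reason no replicate could be left out. Of the 9 receptors, 3 passed the 10-fold rule on CPM. The number was 1 on UMIs per 100 cells, 1 without mitochondrial and ribosomal protein genes and 1 without the 5 clusters under 4000 UMIs per cell, and in each case it was Cxcr2. It was 2 with TMM or DESeq2 factors, 7 against the median of the other clusters, where 20.3% of all genes passed, and 8 at 5-fold, where 26.1% did. Under the other scalings and subsets of clusters above, 9.16% to 12.2% of all genes passed. Cxcr4 in cluster 2 turned from 2.89 times the mean of the other clusters to 0.687 times on UMIs per 100 cells. The highest cluster was the same for 3 of 9 receptors on UMIs per 100 cells, 4 without the shallow clusters and at least 8 under every other setting. On CPM, 9 receptors had their highest cluster above the next one beyond counting error, against 30.7% of genes with at least 50 counts. Such receptors numbered 7 without the shallow clusters. They numbered 8 on UMIs per 100 cells, with TMM or DESeq2 factors, and without mitochondrial and ribosomal protein or immunoglobulin genes. The share of all genes was not computed outside CPM, so these other counts have no background. The implied nt-LNA to saline ratios without the shallow clusters were 0.658 for Ccr1, 0.867 for Ccr2, 0.921 for Ccr6, 0.894 for Ccr7, 0.526 for Cxcr2, 0.891 for Cxcr4, 1.19 for Cxcr5 and 0.851 for Cx3cr1. With CPM as the weight they were 0.850 for Ccr2, 0.939 for Ccr6, 0.959 for Ccr7, 1.48 for Ccr9, 0.982 for Cxcr4 and 1.24 for Cxcr5. The cause of these shifts was not tested beyond the construction of each setting. Levels from under 10 UMIs, as for Ccr6 in cluster 16 (6 UMIs), have wide counting intervals.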

Other observations

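Of 28 symbols listed for chemokine receptor signalling, 26 were in the table, all with at least 50 counts. The other 2 are older symbols of genes already among the 26. Of these 26 genes, 2 passed the 10-fold rule, against 10.5% of all genes. Rgs16, a regulator that shortens G protein signals, was highest in the NK cell-like cluster 3 at 71.1 CPM, 91.3 times the mean of the other clusters. Grk3, a kinase that helps to desensitise such receptors, was highest in the nonclassical monocyte-like cluster 15 at 242 CPM, 11.1 times the mean of the others, and Cx3cr1 was highest in that cluster too. Rgs13 came next, with 8.95 times the mean of the others in the B cell-like cluster 1, from 67 UMIs in all. The median ratio of the 26 genes was 2.28, against 2.999 over all genes tested.

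Of the 24 chemokine receptor genes listed, 15 lie on chromosome 9 in the RefSeq annotation of GRCm38.p6, among them 5 of the 9 members. In the order of that annotation Ccr9, Cxcr6, Xcr1, Ccr1, Ccr1l1, Ccr3 and Ccr2 follow each other among the receptor genes. Those of them with at least 50 counts were highest in clusters 5 (Ccr9), 16 (Cxcr6 and Ccr2), 17 (Xcr1) and 7 (Ccr1). On chromosome 1, Cxcr2 and Cxcr1 follow each other, and both were highest in cluster 7.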
